A study of Mus musculus with 11 samples.

Results

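The genes described here are the mouse nuclear receptors of the PPAR and RXR families together with a pair of estrogen-related receptors. Members were taken by gene symbol from the sense-strand representative row of each gene, and 8 of the 29955 gene symbols in the files were members, namely Ppara, Ppard, Pparg, Rxra, Rxrb, Rxrg, Esrra and Esrrg. RNA-seq was done on im-scWATs, mouse preadipocytes from the inguinal subcutaneous white fat depot that were immortalized with SV40 large T antigen and induced to become adipocytes. All induced cultures received indomethacin, dexamethasone, isobutylmethylxanthine, insulin and triiodothyronine. The time course held 1 library at each of days 0, 4 and 8, both labelled with rosiglitazone (ROS, 0.5 μM, a synthetic ligand of PPARγ) and without it. By the study's methods, ROS was added with the induction medium once cells were confluent at day 0. The day 0 libraries were therefore taken as 1 group not yet exposed to ROS. In the other libraries, all at day 8 with ROS, endogenous Jmjd1a, an H3K9 demethylase gene listed as Kdm3a, had been targeted with an shRNA, and human JMJD1A was put back from a retrovirus. The returned protein was wild type (WT, 2 libraries, A and B), S265A, in which the phosphorylated serine cannot be modified, S265D, a phosphomimetic form, or S265D-H1120Y, which also carries a change in the catalytic histidine (1 library each). For the ROS cultures the labels have ROS withdrawn on day 7, whereas the study's methods keep it to day 8, so exposure on the last day is uncertain. The cells were 1 immortalized line in culture, and the labels do not say whether WT A and WT B, or the day 0 libraries, came from separate cultures, so p-values measure only the spread between these libraries, which may be technical.

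PPARs bind DNA as heterodimers with an RXR partner and are switched on by fatty acids and their derivatives. PPARγ is the receptor that drives adipocyte differentiation, PPARα governs fatty acid oxidation and is abundant in brown and beige adipocytes, and PPARδ is found in most cell types. ERRα and ERRγ, which have no known natural ligand, act with PGC-1 coactivators on genes of mitochondrial respiration.

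Each library held between 3.10 and 5.29 Gb of mapped bases, and levels are given as FPKM, which is corrected for transcript length and so allows genes to be compared within a library. The day 0 libraries, labelled with and without ROS, were close to each other, with 0.558% of genes differing by 2-fold or more, and they served as the only replicate pair of the time course. The WT pair differed far more, by 2-fold or more in 18.7% of genes. Preadipocyte and fibroblast markers summed to 966 and 1042 FPKM at day 0 and to 187 FPKM at day 8 with ROS, while adipocyte markers summed to 259 and 260 and then to 36620 FPKM. At day 8 without ROS these sums were 741 and 9713 FPKM. Most of the 741 FPKM was Ly6a, at 495 FPKM, against 424 and 484 FPKM at day 0. The preadipocyte list did not move as 1. Pdgfrb fell from 70.3 and 73.2 FPKM at day 0 to 8.11 and 16.1 FPKM at day 8 with and without ROS. Pdgfra rose from 11.9 and 11.8 FPKM to 18.3 and 35.2 FPKM. The macrophage list summed to 0.602 to 21.9 FPKM over the 11 libraries, most of it Cd68, with its defining genes Emr1 and Ptprc at 0 in each. Skeletal muscle markers reached their highest sum, 19.3 FPKM, in WT B. All of that was Acta1, and Ckm, Myod1 and Myog were at 0 in each of the 11 libraries. Kdm3a, the knocked-down gene, was listed at 20.4, 17.9, 13.03, 23.0 and 28.5 FPKM in WT A, WT B, S265A, S265D and S265D-H1120Y, against 21.1 FPKM at day 8 with ROS, and reads of the human transgene and of the mouse transcript cannot be told apart in this row. In bulk RNA, a smaller number of cells expressing a gene and less RNA per cell cannot be told apart either.

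Pparg lies on the plus strand of chromosome 6 (mm9, chr6:115311239-115440419), and Rxrg on the plus strand of chromosome 1 (chr1:169528493-169569754). Both genes are listed as transcripts with alternative starts that share their downstream exons. The 250 bases upstream of each start are shown because the reads differ between the starts, as described below. Capitals mark the hexamer AGGTCA, the unit of the binding element of PPAR and RXR heterodimers, on either strand.
Pparg γ1 start, chr6:115310989-115311238: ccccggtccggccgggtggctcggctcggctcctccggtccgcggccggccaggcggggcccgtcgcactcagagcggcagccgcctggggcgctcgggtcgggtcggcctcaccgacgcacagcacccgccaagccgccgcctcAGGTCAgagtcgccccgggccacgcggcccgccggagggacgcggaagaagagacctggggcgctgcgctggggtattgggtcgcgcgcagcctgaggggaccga
Pparg γ2 start, chr6:115371834-115372083: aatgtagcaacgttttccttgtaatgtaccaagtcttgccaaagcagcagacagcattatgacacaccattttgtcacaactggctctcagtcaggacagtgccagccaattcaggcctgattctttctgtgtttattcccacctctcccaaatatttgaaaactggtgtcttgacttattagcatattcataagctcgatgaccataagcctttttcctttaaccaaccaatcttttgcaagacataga
Rxrg long form, chr1:169528243-169528492: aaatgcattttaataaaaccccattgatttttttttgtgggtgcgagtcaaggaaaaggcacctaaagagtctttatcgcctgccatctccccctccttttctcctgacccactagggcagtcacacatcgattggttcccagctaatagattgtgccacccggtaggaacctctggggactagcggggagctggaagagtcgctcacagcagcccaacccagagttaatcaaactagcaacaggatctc
Rxrg short form, chr1:169548146-169548395: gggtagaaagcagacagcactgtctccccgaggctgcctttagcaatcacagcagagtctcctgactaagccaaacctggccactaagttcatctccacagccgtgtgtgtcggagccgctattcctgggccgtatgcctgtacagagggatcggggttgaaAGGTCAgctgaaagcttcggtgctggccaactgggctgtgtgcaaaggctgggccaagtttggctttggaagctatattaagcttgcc
The window before the γ1 start was 78.4% G and C with 37 CpG dinucleotides, and that before the γ2 start was 40.8% G and C with 2. Over the same window of 20986 genes the medians were 56.4% and 10. The hexamer was found once before the γ1 start, at bases 105 to 100 upstream, and once before the start of the short Rxrg form, at bases 88 to 83 upstream. It occurred in 11.9% of the 20986 windows. The full direct repeat AGGTCANAGGTCA was in none of the 4 windows and in 0.0524% of all windows, and the extended ERR element TCAAGGTCA was likewise in none of the 4 and in 0.291% of all. These are matches of letters only.

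Every member had 1 representative transcript, and its position is given here for the remaining ones. All of these except Rxra were also listed with further transcripts. Ppara lies on chromosome 15 (chr15:85566206-85637281, plus strand), Ppard on chromosome 17 (chr17:28369699-28438414, plus strand), Rxra on chromosome 2 (chr2:27532721-27618839, plus strand) and Rxrb on chromosome 17 (chr17:34168797-34175344, plus strand). Esrra lies on chromosome 19 (chr19:6985467-6996298, minus strand) and Esrrg on chromosome 1 (chr1:189821738-190038763, plus strand). All 8 are annotated as protein coding.

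Pparg was the most abundant of the PPARs in every library. It was listed at 19.0 and 19.3 FPKM in the day 0 pair, at 115 and 136 FPKM on day 4 with and without ROS, and at 140 and 231 FPKM on day 8 with and without ROS. The transduced libraries held 89.8 (WT A), 95.6 (WT B), 81.4 (S265A), 100.4 (S265D) and 73.9 (S265D-H1120Y) FPKM. All 9 differentiated libraries were above both day 0 libraries, and the culture that never saw ROS had the highest value of all. Among 49 nuclear receptors, Pparg ranked 1 in each of those 9 libraries, whereas Rarg, the retinoic acid receptor γ, ranked 1 in both day 0 libraries at 47.3 and 52.5 FPKM.

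Ppara went from close to nothing to a level that differed widely between libraries. It was at 0.0743 and 0.0631 FPKM at day 0, at 1.57 and 0.988 FPKM on day 4 with and without ROS, and at 9.77 and 2.28 FPKM on day 8 with and without ROS. Among the transduced libraries it was 12.1 FPKM in WT A, 1.83 FPKM in WT B, 1.71 FPKM in S265A, 5.69 FPKM in S265D and 2.39 FPKM in S265D-H1120Y. Day 8 with ROS, WT A and S265D were high, and the other day 8 libraries stayed at or below 2.39 FPKM. These 3 libraries were also the highest of the day 8 libraries in the summed beige adipocyte markers, at 220, 190 and 154 FPKM, where the other day 8 libraries held 23.8 to 82.2 FPKM. Within that list, Ucp1, the uncoupling protein of thermogenic adipocytes, was at 9.90, 12.1 and 4.67 FPKM in the 3 libraries and at most 0.972 FPKM in the others, and Dio2 stayed under 0.1 FPKM throughout. The part of beige conversion in the Ppara level was not tested.

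Ppard moved least. It was at 17.2 and 17.7 FPKM at day 0, 25.8 and 24.1 FPKM on day 4 with and without ROS, and 15.3 and 23.7 FPKM on day 8 with and without ROS, and the 5 transduced libraries lay between 11.7 and 14.7 FPKM. The highest value was 2.20 times the lowest. At day 0 Pparg and Ppard were nearly equal, at 52.3% and 47.5% of the PPAR sum in the library labelled with ROS, and Pparg then made up 77.4% to 89.9% of the sum in the differentiated libraries. Ppara contributed 0.205% and 0.170% of the PPAR sum at day 0, 5.93% at day 8 with ROS, 0.886% at day 8 without ROS and 10.4% in WT A.

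The RXR partners followed separate courses. Rxra was at 18.4 and 18.7 FPKM at day 0, 53.3 and 54.4 FPKM on day 4 with and without ROS, and 46.3 and 45.2 FPKM on day 8 with and without ROS. In WT A, WT B, S265A, S265D and S265D-H1120Y it was at 28.4, 21.2, 25.5, 19.9 and 16.2 FPKM, all below the other differentiated libraries. Rxrb was at 13.5 and 14.8 FPKM at day 0, 23.9 and 21.8 FPKM on day 4, and 46.7 and 30.3 FPKM on day 8 with and without ROS, and the transduced libraries held 19.4 to 27.7 FPKM.

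Rxrg, the RXR with the narrowest tissue range, was listed at 0 in both day 0 libraries, with no mapped base on either transcript. It was at 5.94 and 6.37 FPKM on day 4 and 13.5 and 15.1 FPKM on day 8 with and without ROS, and at 24.9, 16.0, 18.4, 17.8 and 18.6 FPKM in WT A, WT B, S265A, S265D and S265D-H1120Y. Every transduced library was above every library of the time course. Rxrg therefore made up 12.7% and 16.7% of the RXR sum at day 8 with and without ROS, and 25.1% to 34.2% in the transduced libraries. The sum of PPAR over the sum of RXR transcripts was 1.14 and 1.11 at day 0, 1.55 at day 8 with ROS, 2.84 at day 8 without ROS and 1.37 to 1.94 in the transduced libraries.

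**Figure D1:**
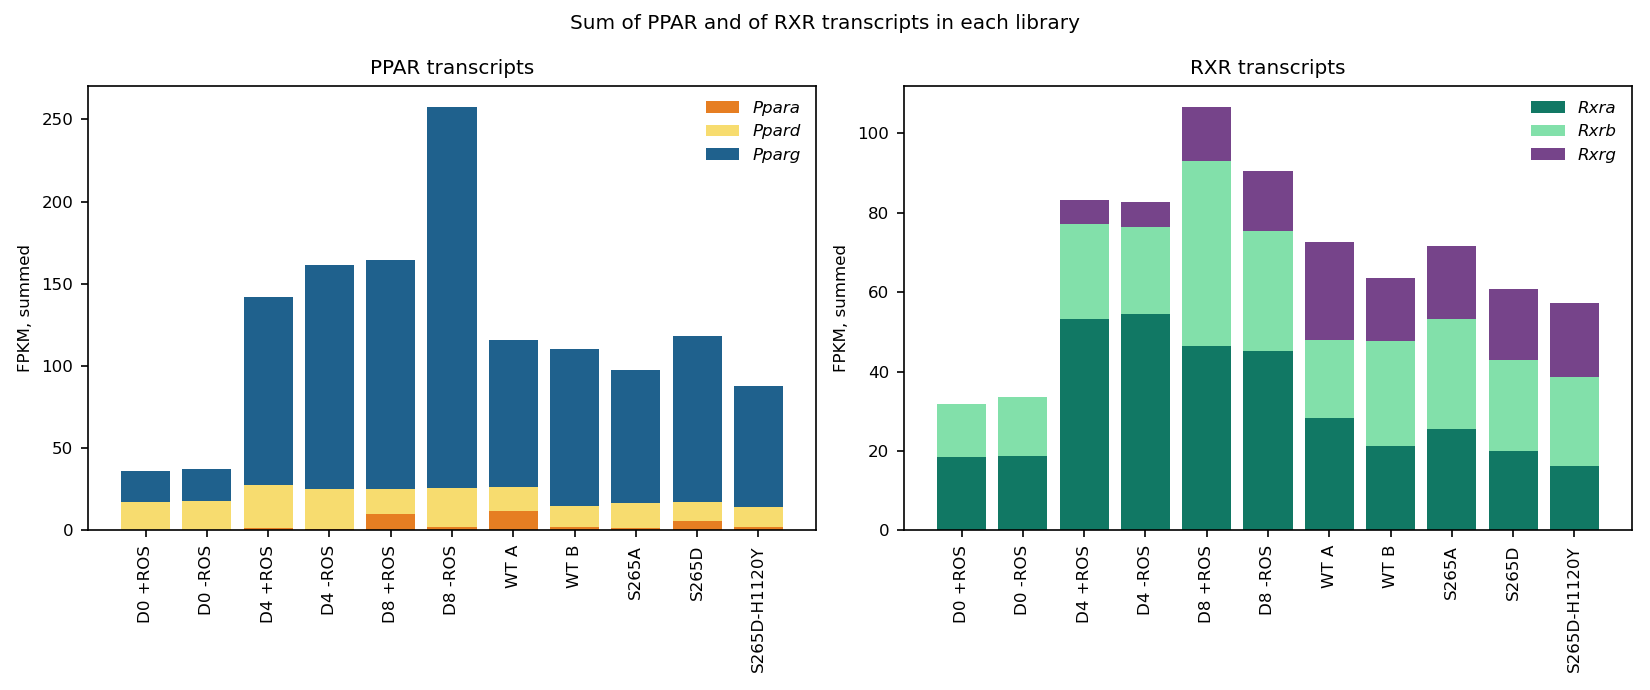
Summed FPKM of the PPAR transcripts (left) and the RXR transcripts (right) in each of the 11 libraries, 1 bar per library, with colours for the genes. Pparg fills 77.4% to 89.9% of the PPAR bar after differentiation, and Rxrg is absent from both day 0 bars.

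Esrra resembled Ppara in where it was high. It was at 7.27 and 7.40 FPKM at day 0, 26.9 and 22.2 FPKM on day 4, and 46.5 and 30.4 FPKM on day 8 with and without ROS. The transduced libraries held 60.6 (WT A), 21.0 (WT B), 28.9 (S265A), 37.3 (S265D) and 26.3 (S265D-H1120Y) FPKM. Esrrg stayed between 0.0243 and 0.181 FPKM in all 11 libraries, on 594 to 4361 mapped bases of a 5260-base transcript, and its values are too low to be ordered.

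**Figure D2:**
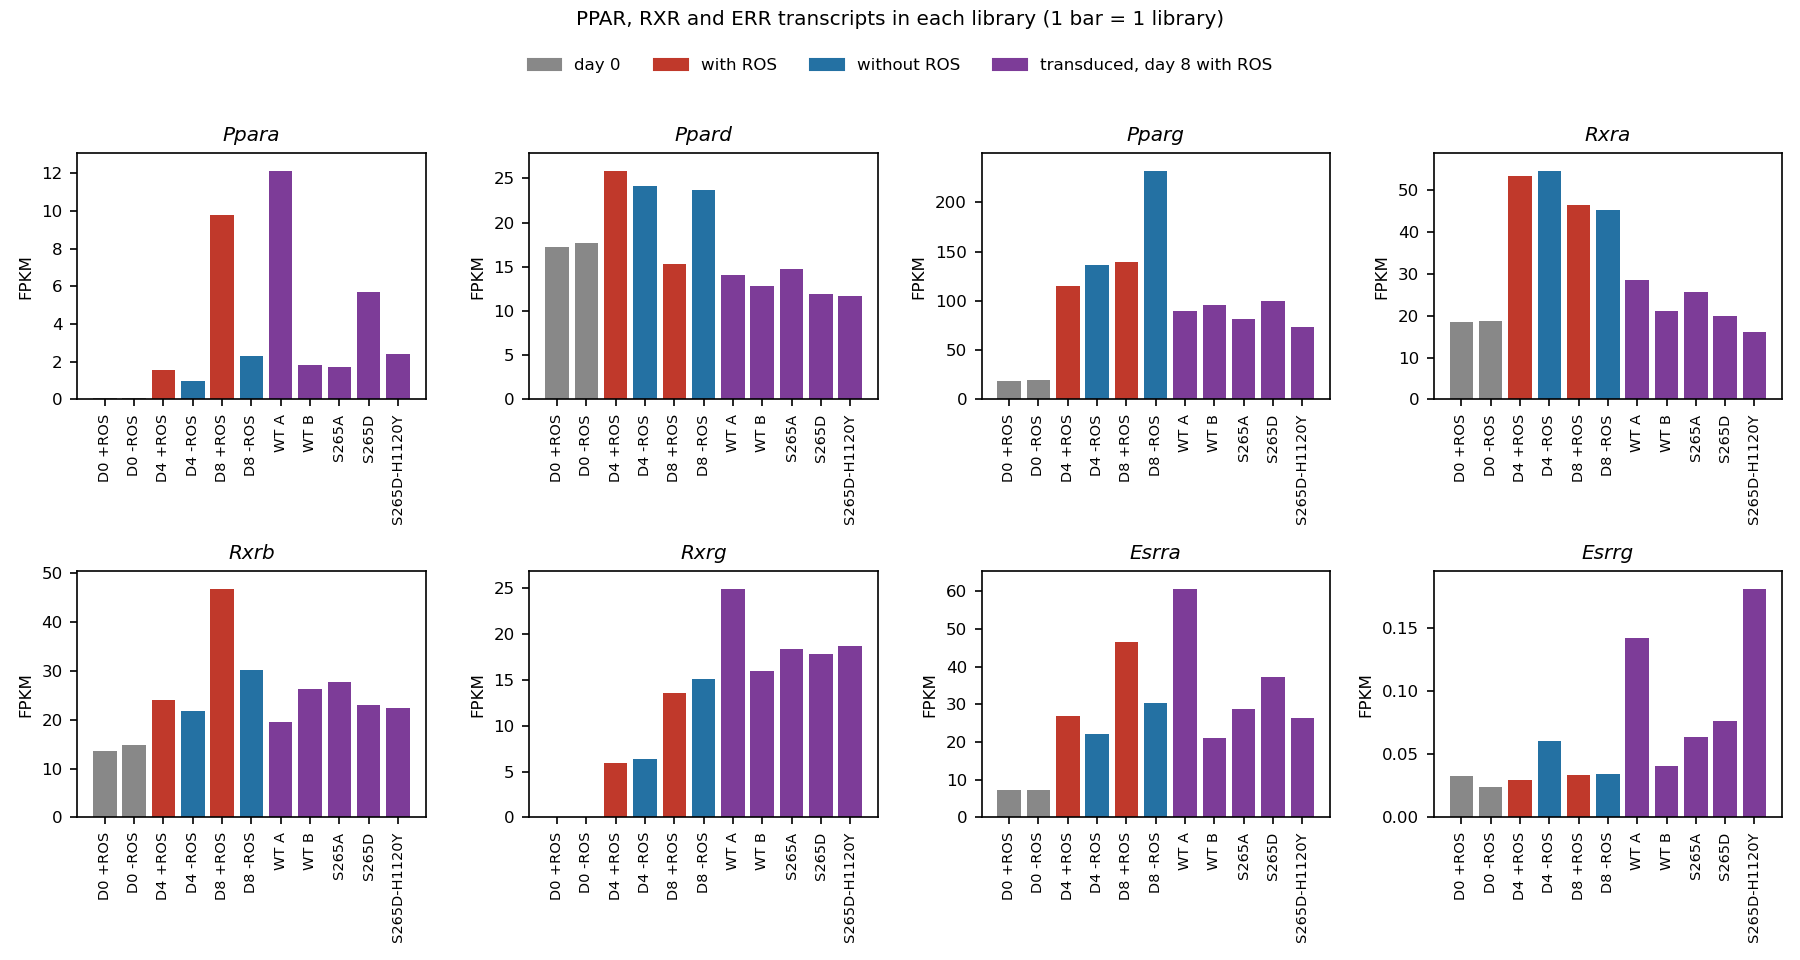
FPKM of the 8 members in each of the 11 libraries, 1 bar per library, with day 0 in grey, ROS in red, no ROS in blue and the transduced libraries in purple, and a separate axis for each gene. Ppara reached 9.77 FPKM at day 8 with ROS and 12.1 FPKM in WT A, against 1.83 FPKM in WT B.

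Reads on the alternative starts of Pparg and Rxrg could be compared through the difference in mapped bases between rows. If each read on a shared exon counts in every transcript that holds the exon, the difference between the γ1 and γ2 rows is the bases on the 215 exonic bases held by γ1 alone less those on the 127 bases held by γ2 alone, so a positive difference sets a lower bound on γ1. At day 0 this bound was 6.87 and 6.62 FPKM. It was 25.3 and 14.1 FPKM on day 4 with and without ROS, 33.0 and 19.0 FPKM on day 8 with and without ROS, and 17.6 to 24.4 FPKM in 4 transduced libraries. WT A was the exception, where the γ2 row was the larger and its own exon held at least 5.36 FPKM. The bound for the first exon of the short Rxrg form (231 bases against 687 bases held by the long form alone) was 5.37 and 7.74 FPKM on day 4, 16.5 and 14.6 FPKM on day 8 with and without ROS, and 16.0 to 28.2 FPKM in the transduced libraries. These bounds were 0.904 to 1.22 times the level of the short Rxrg transcript over its whole length. Whether the other start was used at all cannot be read from a difference.

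**Figure D3:**
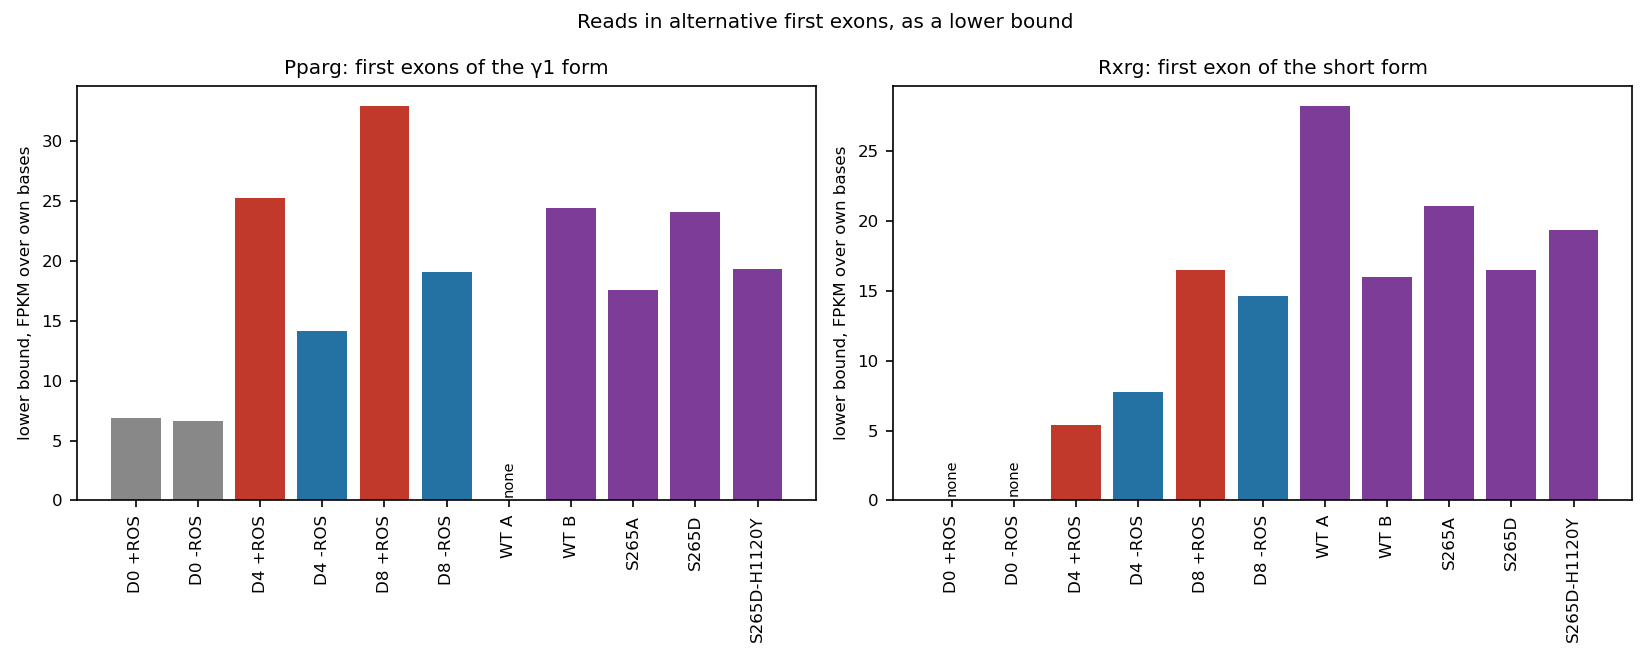
Lower bound on FPKM over the exonic bases held only by the γ1 form of Pparg (left) and only by the short form of Rxrg (right), 1 bar per library, coloured as in the plot of member levels. No bound exists for γ1 in WT A, where the γ2 row held more bases, nor for Rxrg at day 0.

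Differentiation raised most of the members. Day 4 and day 8 were compared with day 0 by limma on log2(FPKM + 0.1), with the spread taken from the day 0 pair. On day 4 with ROS all 7 members tested were higher (adjusted p = 0.0235 to 0.0499), where 17.1% of the 16400 genes tested were called higher. The calls of Ppard and Rxrb were the weakest. An alternative, median scaling, divided each library by its median ratio to the geometric mean of each gene. With it, or with a pseudocount of 0.01, 5 of 7 were called on this day and Ppard and Rxrb were not (limma adjusted p = 0.0538 to 0.0604). The rise was 6.003-fold for Pparg, 22.9-fold for Ppara, 2.87-fold for Rxra, 3.66-fold for Esrra, 1.69-fold for Rxrb and 1.48-fold for Ppard. On day 8 with ROS 6 of 7 were higher (21.8% of all genes), with log2 differences of 5.87 ± 0.09 for Ppara, 2.86 ± 0.06 for Pparg, 2.65 ± 0.06 for Esrra, 1.72 ± 0.10 for Rxrb and 1.32 ± 0.06 for Rxra (SE, limma adjusted p = 0.0164 to 0.0198), and Ppard was at -0.19 (adjusted p = 0.148). Rxrg was called in all 4 comparisons, but no fold is given because it was listed at 0 on day 0. The spread of Rxrg in that pair was 0, so its tests throughout the time course rest on spread that limma borrows from other genes. The day 0 values of Ppara, 0.0743 and 0.0631 FPKM, lay under the pseudocount of 0.1. The SE of Ppara throughout the time course therefore comes from values near the floor.

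Without ROS, 5 of 7 were higher on day 4 (15.2% of all genes) and 6 of 7 on day 8 (20.6% of all genes). Pparg was 7.12-fold and 12.1-fold above day 0, Ppara 14.4-fold and 33.2-fold, Rxra 2.93-fold and 2.44-fold, and Esrra 3.03-fold and 4.15-fold, on day 4 and day 8 in that order. Ppard missed the threshold on both days (limma adjusted p = 0.0596 and 0.0574), as did Rxrb on day 4 (adjusted p = 0.0653), and all 3 values were called when genes had to reach 1 FPKM (adjusted p = 0.0467, 0.0473 and 0.0371). The 4 comparisons share the day 0 pair. The calls rest on that pair alone: without either of its libraries the spread came from the WT pair and 0 members were called in any of the 4, and with all 11 libraries in 1 fit 2 members were called in each.

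From day 4 to day 8 the members parted. With ROS, Ppara was 6.22-fold higher, Rxrg 2.28-fold, Rxrb 1.95-fold, Esrra 1.73-fold and Pparg 1.22-fold, while Rxra was at 0.870 and Ppard at 0.594 of its day 4 level. Without ROS, Rxrg was 2.37-fold higher, Ppara 2.31-fold, Pparg 1.70-fold, Rxrb 1.39-fold and Esrra 1.37-fold, with Rxra at 0.831 and Ppard at 0.986. Ppara and Rxrg passed 2-fold in both courses, as did 4.74% of all genes with ROS and 7% without. No member and no gene was called by limma in either comparison (0% of 16400), where the smallest adjusted p was 0.143 and 0.164 and 4565 and 4424 genes had an unadjusted p under 0.05.

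Between the day 8 cultures with and without ROS, Ppara differed the most of the 7 members tested. It was 4.28-fold higher with ROS, a log2 difference of 2.05 ± 0.10 (SE, limma adjusted p = 0.0972). Rxrb was 1.54-fold and Esrra 1.53-fold higher (adjusted p = 0.137 and 0.111), while Pparg stood at 0.604 and Ppard at 0.645 of the level without ROS (adjusted p = 0.103 and 0.112). Rxra and Rxrg differed by 0.04 and -0.16 on the log2 scale (adjusted p = 0.777 and 0.290). With 1 library in each arm these tests borrow the spread of the day 0 pair. For Ppara that pair lay under the pseudocount of 0.1. Its SE therefore says little about day 8, where WT B over WT A was at -2.66 on the log2 scale. No gene was called (0% of 16400, 5011 with an unadjusted p under 0.05), and 2.9% of genes were 2-fold or more higher, a size that Ppara alone reached among the members. The median of all genes was -0.20 in this comparison, and median scaling moved it by 0.18, after which Ppara was at 2.24, Pparg at -0.54, Ppard at -0.44 and Rxrg at 0.03.

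On day 4 the same comparison gave a log2 difference of 0.62 ± 0.10 for Ppara (limma adjusted p = 0.417), -0.25 for Pparg, 0.27 for Esrra and values from -0.10 to 0.13 for Ppard, Rxra, Rxrb and Rxrg. No gene was called (0% of 16400, 1862 with an unadjusted p under 0.05). The change in the ROS difference from day 4 to day 8 was itself fitted. It was 1.43 ± 0.14 for Ppara (limma adjusted p = 0.256), -0.73 ± 0.11 for Ppard (adjusted p = 0.265), -0.48 ± 0.10 for Pparg (adjusted p = 0.289), 0.49 ± 0.16 for Rxrb (adjusted p = 0.340), and none of the 7 members was called (0% of all genes, 2763 with an unadjusted p under 0.05).

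Returned forms of JMJD1A were compared at day 8 with ROS, where the spread came from the WT pair. Against WT, Ppara in S265A was at -1.42 ± 1.41 on the log2 scale (limma adjusted p = 1), but this value turned on the control: S265A was at 0.141 of WT A and 0.934 of WT B. In S265D Ppara was at 0.470 of WT A and 3.11 times WT B. Esrra showed the same split, with S265A at 0.477 of WT A and 1.38 times WT B, and S265D at 0.616 and 1.77 times. WT A exceeded WT B by 6.62-fold in Ppara and 2.88-fold in Esrra. Preadipocyte markers summed to 296 FPKM in WT A and 753 FPKM in WT B, with Ly6a alone at 116 and 496 FPKM. Adipocyte markers also had the smaller sum in WT A, at 15900 against 29400 FPKM. Most of that sum was Fabp4, at 12393 and 26902 FPKM, and every other adipocyte marker listed was higher in WT A than in WT B. Pparg was close in both, at 89.8 and 95.6 FPKM, and S265A and S265D differed from the WT mean by -0.19 ± 0.39 and 0.12 ± 0.39. No member was called against WT (0% of 16402 genes in both comparisons, with 107 and 99 genes at an unadjusted p under 0.05), and 2.52% of genes were 2-fold or more lower in S265A, among them Ppara.

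S265D was compared with S265A directly. Ppara was 3.33-fold higher in S265D, a log2 difference of 1.68 ± 1.62, Esrra 1.29-fold and Pparg 1.23-fold, while Rxra, Rxrb and Ppard stood at 0.780, 0.829 and 0.809 (limma adjusted p = 1 for each). Ppara was the only member to pass 2-fold, as 4.66% of genes did, and no gene was called (0%, 96 at an unadjusted p under 0.05). With the added catalytic change, S265D-H1120Y held 0.420 of the Ppara of S265D, a log2 difference of -1.22 ± 1.62, with Esrra at 0.705, Pparg at 0.737, Rxra at 0.813 and Rxrg at 1.05 (limma adjusted p = 1 for each). In this comparison 6.04% of genes were 2-fold or more lower, among the members Ppara alone, and none was called (0%, 187 at an unadjusted p under 0.05). The Ppara of S265D and S265D-H1120Y lay inside the range from 1.83 to 12.1 FPKM set by the WT pair, and that of S265A just below it.

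**Figure D4:**
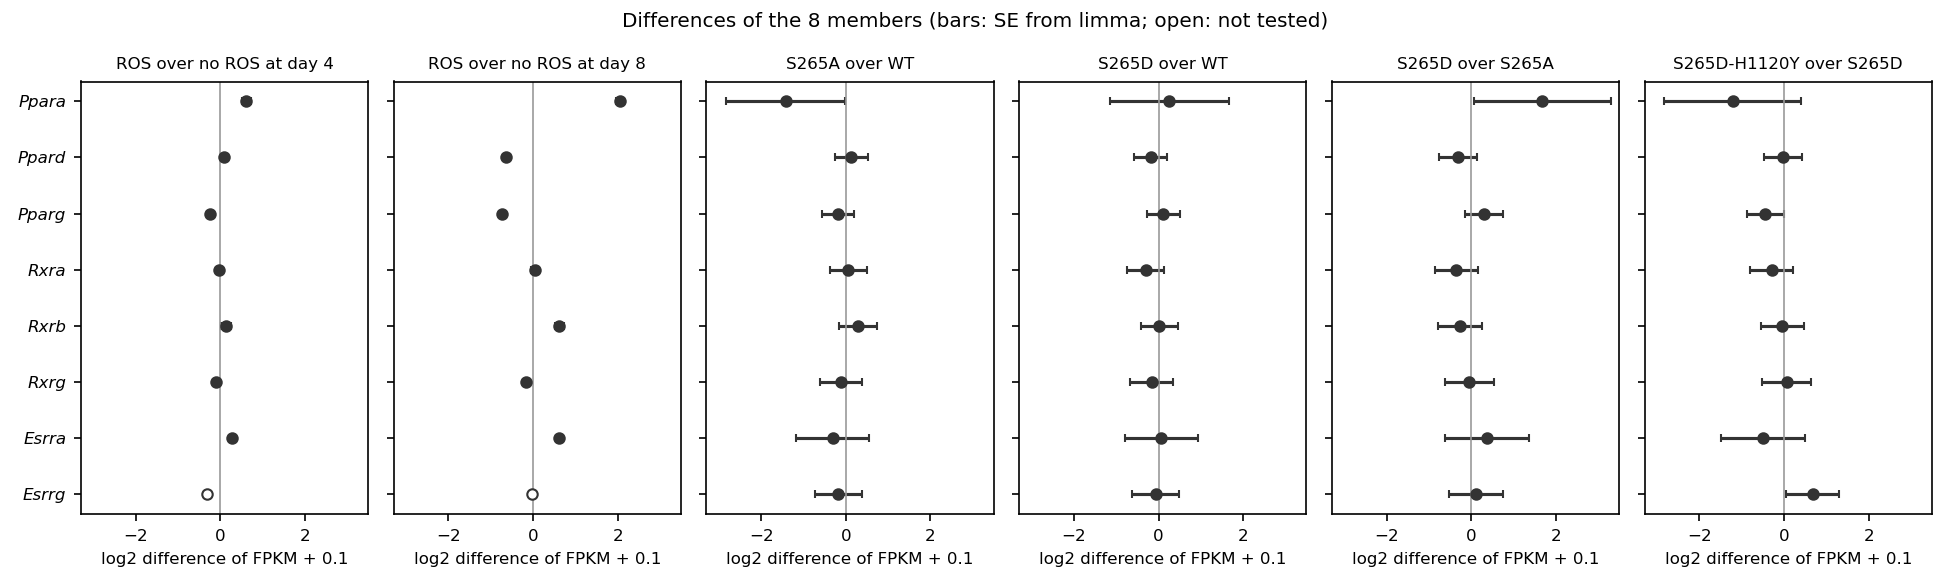
Log2 differences of FPKM + 0.1 for the 8 members in 6 comparisons, with SE from limma as bars and open points for Esrrg where it was not tested. Bars in the ROS panels come from the day 0 pair and are mostly hidden by the points, and those in the JMJD1A panels come from the WT pair, so that Ppara in S265D over S265A spans 1.68 ± 1.62.

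RXR also pairs with receptors outside the PPAR family, and 13 such partners were listed, of which 11 were tested. On day 8 with ROS against day 0, 4 of the 11 were called higher and 5 lower by limma, where 21.8% of all genes were called higher and 25.5% lower, and their median was -0.60 against -0.14 over all genes. Nr1h3, the liver X receptor α, went from 0.441 and 0.594 FPKM to 89.1 FPKM, and Thrb, the thyroid hormone receptor β, from 0.0140 in both to 1.33 FPKM (limma adjusted p = 0.0164 for both). Rarg fell from 47.3 and 52.5 to 7.64 FPKM (limma adjusted p = 0.0170). Between the day 8 cultures, 4 of the 11 partners were higher and 7 lower with ROS. Of these, 3 were lower by 2-fold or more, as 10.9% of all genes were. Vdr, the vitamin D receptor, was at 6.92 FPKM with and 19.9 FPKM without ROS, and Rara at 5.10 and 12.01 FPKM (limma adjusted p = 0.0972 for both). The highest differences went the other way, with Thrb at 1.33 and 0.799 FPKM and Nr1h3 at 89.1 and 60.7 FPKM.

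Coactivators moved in both directions with differentiation. Of 11 coactivators, 4 were called higher and 5 lower by limma on day 8 with ROS, against 21.8% and 25.5% of all genes. Ppargc1b, which encodes PGC-1β, went from 0.0643 and 0.0351 to 9.21 FPKM, and Ppargc1a, which encodes PGC-1α, the partner of PPARs and ERRs in mitochondrial gene activation, from 0.132 and 0.0828 to 5.09 FPKM (limma adjusted p = 0.0164 and 0.0178). Ncoa3, a steroid receptor coactivator, fell from 7.41 and 7.56 to 2.48 FPKM (limma adjusted p = 0.0170). Among the transduced libraries Ppargc1a was at 9.11 in WT A, 3.14 in WT B, 3.86 in S265A, 9.86 in S265D and 8.75 FPKM in S265D-H1120Y. Prdm16, a cofactor of beige adipocyte identity, reached 1.25 FPKM in WT A and was at or below 0.143 FPKM in the other 10 libraries. Of 5 corepressors, Nrip1 was called higher, from 3.34 and 2.51 to 14.7 FPKM (limma adjusted p = 0.0340).

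Known target genes of the receptors rose with differentiation. All 20 listed PPARγ targets were called higher by limma on day 8 with ROS, in a comparison where 21.8% of all genes were called higher and 25.5% lower, with a median log2 difference of 6.87 where the median of all genes was -0.14. Cidec, a lipid droplet protein, went from 0.150 and 0.189 to 2087 FPKM, Adipoq, the adipokine adiponectin, from 0.121 and 0.0519 to 1291 FPKM, and Gpd1, which supplies glycerol 3-phosphate, from 0.153 and 0.222 to 1794 FPKM (limma adjusted p = 0.0164 for each). Of the targets of PPARα and PPARδ, 16 of 19 tested were called higher and 1 lower, with a median of 3.20. Cpt1b, the muscle-type carnitine palmitoyltransferase, rose from 1.11 and 0.949 to 34.4 FPKM, and Ehhadh, an enzyme of peroxisomal β-oxidation, from 0.297 and 0.263 to 22.2 FPKM (limma adjusted p = 0.0164 for both), while Cpt1a, the liver-type enzyme, fell from 28.5 and 29.8 to 16.7 FPKM (limma adjusted p = 0.0282). Among ERR targets 14 of 17 tested were called higher and none lower, with a median of 1.95, as for Cycs, which encodes cytochrome c, at 42.3 and 42.5 FPKM before and 484 FPKM after (limma adjusted p = 0.0164).

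On day 8, most PPARγ targets had higher values with ROS, while Pparg itself stood at 0.604 of its level without ROS. Of the 20, 18 were above the level without ROS and 12 of them by 2-fold or more, as 2.9% of all genes were, with a median log2 difference of 1.27 where the median of all genes was -0.20, but none was called by limma (smallest adjusted p = 0.0972). Cidec was at 2087 FPKM with and 436 FPKM without ROS, and Aqp7, a glycerol channel, at 31.5 and 7.04 FPKM, whereas Retn, the adipokine resistin, was at 238 and 278 FPKM. For the targets of PPARα and PPARδ, 17 of 19 were higher with ROS and 12 by 2-fold or more (2.9% of all genes), with a median of 1.05. Pdk4, which restrains glucose oxidation, stood at 145 against 10.4 FPKM, and Cpt1b at 34.4 against 2.85 FPKM. All 17 ERR targets tested were higher with ROS, by a median of 0.68, and 1 of them, Cycs, by 2-fold or more at 484 against 196 FPKM. Preadipocyte markers, all 8 of the list summed, were at 741 FPKM without and 187 FPKM with ROS in the same libraries. Ly6a alone was at 495 and 108 FPKM of these sums. The part of these markers in the differences of the targets was not tested.

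In the JMJD1A libraries the differences of the target lists were smaller. S265D over S265A gave medians of -0.05 for PPARγ targets (9 of 20 higher), 0.43 for PPARα and PPARδ targets (16 of 19 higher) and 0.14 for ERR targets (13 of 17 higher), where the median of all genes was 0.00154. In S265D-H1120Y, all 20 PPARγ targets were below S265D, 5 of them by 2-fold or more, as 6.04% of all genes were, with a median of -0.71 where the median of all genes was -0.05. PPARα and PPARδ targets were lower in 15 of 19, with a median of -0.74, and ERR targets in 13 of 17, with a median of -0.35. Agpat2, an enzyme of triglyceride synthesis, was at 597 FPKM in S265D and 205 FPKM in S265D-H1120Y, Cebpa, the partner of PPARγ in adipogenesis, at 86.4 and 43.2 FPKM, and Ehhadh at 7.58 and 1.42 FPKM. Acot2, a mitochondrial thioesterase, went the other way, at 29.2 and 46.4 FPKM. Adipocyte markers, several of which are also listed PPARγ targets, summed to 25260 FPKM in S265D and 15620 FPKM in S265D-H1120Y. Most of both sums was Fabp4, at 22872 and 14128 FPKM. Preadipocyte markers summed to 624 and 367 FPKM in the same libraries. The part of cell state in the differences of the targets was not tested. No gene of the 3 lists was called by limma in either comparison (adjusted p = 1), each arm being 1 library, and the WT values of Agpat2, 723 and 426 FPKM, and of Ehhadh, 39.0 and 6.84 FPKM, were themselves far apart.

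**Figure D5:**
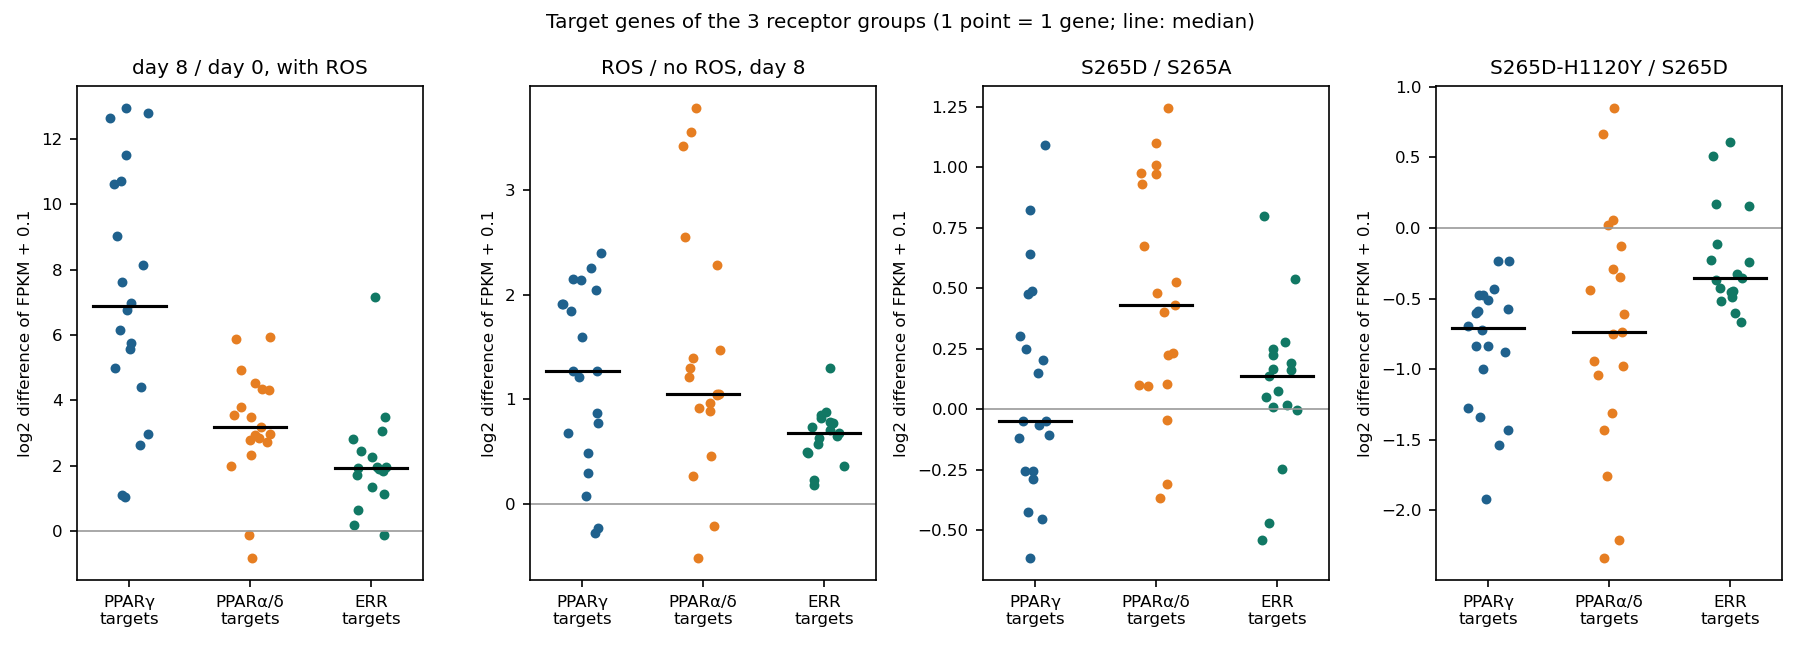
Log2 differences of FPKM + 0.1 for target genes of PPARγ (20 genes), PPARα and PPARδ (19 genes) and ERRs (17 genes) in 4 comparisons, with 1 point per gene, a black line at the median and a separate axis for each panel. All 20 PPARγ targets lie above 0 on day 8 against day 0 and below 0 in S265D-H1120Y against S265D.

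The genes whose log2(FPKM + 0.1) ran most like each member over the 11 libraries were ranked by Pearson's r, as a description, since libraries share the contrast of day 0 with differentiated cells. Ppip5k1, an inositol pyrophosphate kinase gene, was the closest to both Ppara (r = 0.984) and Esrra (r = 0.996), and Esrra was itself among the 5 closest to Ppara (r = 0.981, and 0.940 over the 9 differentiated libraries). Rxrg ran closest to Fxyd1 (r = 0.996) and also to Scd1, the stearoyl-CoA desaturase (r = 0.992). Over the 9 differentiated libraries these values for Rxrg were lower, at 0.910 and 0.871. Rxra ran closest to Rhob (r = 0.990) and was also close to Fkbp5, a gene that glucocorticoids induce (r = 0.980). Pparg ran closest to Orm3 (r = 0.987), Rxrb to BPOZ and Abtb1 (r = 0.983 and 0.982), which are names for the same locus, and Ppard to Nif3l1 (r = 0.975, and 0.9905 over the 9 differentiated libraries). For Esrrg, at the edge of detection, no likeness is given.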

How the data were processed

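The 11 libraries of total RNA were extracted with ISOGEN, prepared with TruSeq and aligned by the authors with BWA to UCSC genes and the mm9 genome. The deposited FPKM are strand-specific and relate to mapped bases per exon kilobase and total mapped Mb, and the deposited mapped bases are a coverage signal from which first-exon bounds were computed. Columns of log-transformed FPKM were not used. The sense row flagged as representative was taken for each symbol. Genes reaching 0.1 FPKM in any library of a fit were tested on log2(FPKM + 0.1) with limma 3.58.1 (R 4.3.3), Benjamini-Hochberg adjusted over 16400 genes (time course, day 0 libraries as 1 group) or 16402 genes (JMJD1A libraries), threshold 0.05, with 1 residual degree of freedom each. A fold change on this scale understates change in low genes. The fit was tested on simulated data. Libraries held 3.10 to 5.29 Gb, and most conditions had 1 library. Upstream sequence was read from the NCBIM37 (mm9) genome with strand from GENCODE. Alternatives were pseudocounts, filters, median scaling, another transcript choice, a joint fit and leaving out libraries. The scale factors came from 10585 genes at 1 FPKM or more in all 11 libraries. Named genes were all members, the 5 genes most like each (with an FPKM of at least 1 in some library), and in 5 comparisons the 3 highest and 2 lowest of each list. Members and lists were chosen with earlier results of these data known. Ucp1, Dio2, Emr1, Ptprc, Cd68, Cebpa, Ly6a, Pdgfra, Pdgfrb, Acta1, Ckm, Myod1 and Myog were named after their values were seen. So were the libraries' values of genes named by the rule elsewhere. Some results are not reported here.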

Additional observations from a re-analysis of the deposited data

Results flagged for a closer look

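Reads on the strand opposite to Pparg, which no comparison above used, were listed at 0.147 FPKM or more in each of the 9 libraries of day 4 and day 8, against at most 0.0482 FPKM in the day 0 libraries. The antisense row held between 0.138% and 0.435% of the sense FPKM in those 9 libraries, and 0.254% and 0% at day 0. Such shares were not particular to Pparg. In the same 9 libraries they were 0.194% to 0.992% for Rxrg and 0.126% to 0.422% for Esrra, while Esrrg had no antisense reads listed.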

How the results depend on the processing

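Counts of members called by limma against day 0 depended on the spread used. With all 11 libraries in 1 fit, 2 members were called in each of the 4 comparisons, and without either day 0 library the count was 0 in each (lowest 0, highest 0), since the spread then came from the WT pair alone. With no minimum FPKM, 4 members were called on day 4 with ROS (Ppara, Ppard and Rxrb were lost, limma adjusted p = 0.0552, 0.106 and 0.186), calls were also lost for Rxrb on day 8 with and without ROS (0.0914 and 0.143) and Ppara on day 4 without ROS (0.0720), and 1 member was called in both day 8 over day 4 comparisons, in both ROS comparisons and in their difference. That call was Rxrg, whose spread in the day 0 pair is 0 because both libraries are at 0. With a minimum of 1 FPKM, 1 member, Ppara, was called for ROS at day 8 (log2 difference 2.05, adjusted p = 0.0466), and Ppard on both days and Rxrb on day 4 against day 0 without ROS were gained (0.0467, 0.0473 and 0.0371). Members past 2-fold numbered 1 with a pseudocount of 1 for day 8 over day 4 without ROS, and 0 and 2 for S265D-H1120Y over S265D with pseudocounts of 1 and 0.01. Leaving out a WT library gave 0 to 2 members past 2-fold for S265A over WT and 1 for S265D over WT either way. Median scaling moved the median of all genes by 0.12 for day 8 over day 0 with ROS and by 0.12 for the difference of the ROS effects. On day 4 with ROS, Ppard and Rxrb lost their call under it (limma adjusted p = 0.0604 and 0.0595) and with a pseudocount of 0.01 (0.0538 and 0.0598), and Rxrb with the transcript of highest mean FPKM (0.0551). Ppard without ROS was called on both days with a pseudocount of 1 (0.0407 and 0.0387). Directions turned under median scaling for Rxra at day 4 (0.0296) and Rxrg at day 8 (0.0305) with ROS, Rxrg in the difference of the ROS effects (0.0710) and Ppard in S265D-H1120Y over S265D (0.0118). In S265A over WT, leaving out WT A and then WT B gave 0.27 and -0.15 for Rxra, 0.20 and -0.43 for Rxrg, 0.46 and -1.06 for Esrra, and 0.22 and -0.56 for Esrrg. In S265D over WT the same gave 1.59 and -1.07 for Ppara, -0.20 and 0.24 for Rxrb, 0.16 and -0.48 for Rxrg, 0.82 and -0.70 for Esrra, and 0.32 and -0.46 for Esrrg. In both comparisons with WT, each member that turned had its value in the mutant form between those of WT A and WT B. Its sign changed with the WT library that was kept. The values that turned under median scaling had been -0.03, -0.16, -0.06 and -0.02 before it, in the order given. What set WT A and WT B apart was not tested. No paired analysis was possible because the labels number only the WT libraries, as A and B, and each group compared with them or with another holds 1 unnumbered library or, at day 0, a pair of them. With 1 library in most conditions, differences between the JMJD1A forms that are smaller than the gap between WT A and WT B were not detectable. Larger differences were not called either. Pparg in S265D-H1120Y over S265D, for example, was at -0.44 on the log2 scale, where WT B over WT A was at 0.09.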

Other observations

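Among the nuclear receptors outside the families described above, Pgr, the progesterone receptor, was at 2.75 FPKM in WT B and 3.72 FPKM in S265D, while WT A was listed at 0 and S265A and S265D-H1120Y were at 0.128 and 0.0377 FPKM. Vdr was at 17.5 to 32.9 FPKM in the time course except day 8 with ROS, where it was 6.92 FPKM, and at 0.941 to 5.12 FPKM in the JMJD1A libraries. Of 49 receptors listed, 24 to 29 had an FPKM of at least 1 in a given library, and 6 were at 0 in all 11.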
